A study of Mus musculus with 18 samples.

Results

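The genes described here are 10 genes typical of eosinophils, granulocytes of the bone marrow, in cultures of bone marrow–derived dendritic cells (DCs). They are Ear1, Ear2, Ear6, Prg2, Prg3, Epx, Ccr3, Siglecf, Il5ra, and Alox15, 10 of the 29875 genes in the table, and they were selected on their lower counts in collagen than in suspension. Of the 10, 9 passed the filter on low counts and were among the 13844 genes tested. Il5ra did not pass and is given as counts. Because the choice used collagen against suspension, that comparison is described here for these genes and carries no test.

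Bone marrow of wild-type C57Bl6/J mice aged 8 to 12 weeks was grown in 10% GM-CSF hybridoma supernatant, and on day 8 all cultures received LPS at 200 ng/ml for 24 hours. The DCs were then cast in collagen at 1.7, 2.6, 3.5, or 4.4 mg/ml, or kept in the same chambers without collagen (suspension), and RNA was taken 5 hours after CCL19, a chemoattractant of mature DCs, was introduced. Each of the 4 densities and 2 suspension groups has 3 biological replicates, 12 collagen and 6 suspension libraries in all. One suspension group is titled plus CCL19 and the other has no CCL19 in its title (called titled without CCL19), but their library names state the opposite, so both are called by title and no direction is given to an effect of CCL19. Libraries of the same replicate number share a date and a lane, so each replicate is a batch with 1 library of every group.

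Eosinophils carry granules filled with strongly basic proteins, a peroxidase, and ribonucleases, which they make as they mature in the marrow. They respond to IL-5 through its receptor and to eotaxins through the chemokine receptor CCR3, and in mice they display the sialic acid–binding lectin Siglec-F. GM-CSF, the growth factor of these cultures, also acts on the eosinophil lineage, whose development requires the transcription factor GATA1.

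DC markers dominated every library. Summed over 12 genes, they reached 33957 to 103576 CPM (counts normalised to library size, with edgeR's TMM factors) in suspension and 45661 to 114624 CPM in collagen. The 10 eosinophil genes together reached 121 to 1385 CPM in suspension and 14.8 to 171 CPM in collagen. Total counts were 13062944 to 28059839 per library. Scaled by these totals alone, without the TMM factors, 3 counts made 0.107 to 0.230 CPM, and differences near this floor could not be measured. The libraries are of bulk RNA, in which fewer eosinophils and less of each RNA per eosinophil cannot be told apart. Replicate 2 of suspension titled plus CCL19 stood apart: its neutrophil markers summed to 10297 CPM, against 789 to 4177 CPM in the other suspension libraries, and it held the highest value of the suspension libraries for 5 of the 10 eosinophil genes. Replicate 2 at 4.4 mg/ml held the highest collagen value of Prg2 and Epx.

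The granule ribonucleases come from a family of near copies on chromosome 14, and their sequences bear on how far their counts can be separated. Ear1 lies at chr14:43818765-43875517 on the minus strand, where it overlaps the pseudogene Ear-ps9 on the same strand. Ear2 lies at chr14:44102654-44103534 and Ear6 at chr14:51853699-51854643, both on the plus strand (all in GRCm38). The first 60 coding bases of each are shown because they show how little tells these genes apart, with bases that differ from Ear1 in capitals:
Ear1: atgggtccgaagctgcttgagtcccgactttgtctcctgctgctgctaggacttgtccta
Ear2: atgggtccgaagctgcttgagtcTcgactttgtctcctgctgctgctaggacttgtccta
Ear6: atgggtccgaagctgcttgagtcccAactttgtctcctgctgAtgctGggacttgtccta
Over the coding sequence, Ear1 and Ear2 were identical at 445 of 465 aligned bases (95.7%), and Ear6 was 87.3% identical to Ear1 and 88.2% to Ear2. Of all 50-base stretches of their transcripts, the length of 1 read, 57.4% of Ear1 (381 of 664) and 41.5% of Ear2 (278 of 670) also occur in transcripts of other genes. The share was 0.954% for Ear6, 0.206% for Siglecf, and 0.899% for Il5ra, and 0 for Prg2, Prg3, Epx, Ccr3, and Alox15. How reads that match several genes were counted is not given in the sources used here, so the split of counts between Ear1 and Ear2 is uncertain, while Ear6 and the 5 genes without shared stretches are separable at this read length.

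The sequences upstream of Ear1 and Ear2 are near copies too. They are printed because these genes ended at different levels in collagen, and they cover the 250 bases before the RefSeq start (GRCm38.p6), Ear1 at chr14:43819640-43819889 on the minus strand and Ear2 at chr14:44102404-44102653 on the plus strand. Over 248 aligned bases, 246 were identical (99.2%), and capitals mark the bases of Ear2 that differ:
Ear1: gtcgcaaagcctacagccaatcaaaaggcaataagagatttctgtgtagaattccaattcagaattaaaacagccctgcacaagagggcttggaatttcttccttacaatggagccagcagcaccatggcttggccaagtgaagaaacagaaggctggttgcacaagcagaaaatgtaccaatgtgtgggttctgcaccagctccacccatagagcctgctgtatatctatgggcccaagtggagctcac
Ear2: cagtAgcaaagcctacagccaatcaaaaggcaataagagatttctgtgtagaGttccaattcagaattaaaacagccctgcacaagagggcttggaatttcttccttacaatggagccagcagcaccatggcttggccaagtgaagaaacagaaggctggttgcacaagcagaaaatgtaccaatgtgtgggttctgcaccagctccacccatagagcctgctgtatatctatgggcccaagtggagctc

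Ear1, an eosinophil-associated ribonuclease, was nearly absent from the gels. It had 19, 231, and 469 counts in replicates 1 to 3 of suspension titled plus CCL19 and 25, 30, and 155 counts in suspension titled without CCL19. In collagen it had 0 to 15 counts, with 3 or fewer in 7 of 12 libraries. Every collagen library (highest 0.917 CPM) stood below every suspension library (lowest 0.966 CPM). The mean was 8.05 ± 8.34 CPM in suspension (SD, n = 6) and 0.238 ± 0.260 CPM in collagen (SD, n = 12), and the fitted log2 difference, collagen minus suspension, was −5.06 (SE 0.68), the widest of the 9 genes and one that rests on few counts.

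Ear2, the near copy, differed far less between gels and suspension. Its CPM in suspension titled plus CCL19 were 6.54, 28.5, and 18.3, and in suspension titled without CCL19 4.98, 2.78, and 10.4. In the loosest gel they were 5.93, 1.77, and 4.99, and in the densest gel 13.5, 11.1, and 4.55. The groups overlapped broadly, with 9 of 12 collagen libraries at or above the lowest suspension library. Mean values were 11.9 ± 9.77 CPM in suspension (n = 6) and 5.16 ± 3.76 CPM in collagen (n = 12), a log2 difference of −1.16 (SE 0.39), or −0.91 without replicate 2 of suspension titled plus CCL19, and at 4.4 mg/ml alone the difference was −0.09 (SE 0.57). Within replicate 1 the direction turned: log2 CPM of Ear2 was 0.26 higher in collagen. Because 41.5% of its 50-base stretches are shared, reads of Ear2 and of its copies cannot be told apart there. Ear10, its closest copy of those compared (97% identical in coding sequence), had no entry under that name in the deposited counts. Where reads shared with Ear10 were counted is not known.

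**Figure D1:**
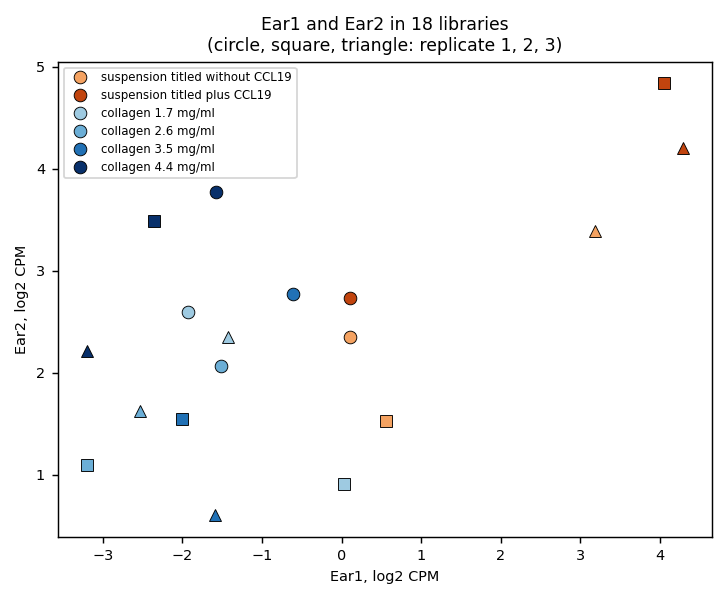
Level of Ear2 (y axis) against Ear1 (x axis), both as log2 CPM with a prior count of 2, in each of the 18 libraries, coloured by group and shaped by replicate. All 12 collagen libraries lie left of the 6 suspension libraries along Ear1, while along Ear2 the 4.4 mg/ml libraries of replicates 1 and 2 reach 13.5 and 11.1 CPM, above 4 of the 6 suspension libraries.

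Ear6, another ribonuclease of the family, was lower in the gels by a margin close to that of Prg2. In suspension titled plus CCL19 it stood at 3.63, 45.0, and 40.0 CPM, and in suspension titled without CCL19 at 3.36, 7.84, and 20.6 CPM. Its collagen values ran from 0.496 to 3.86 CPM, so 1 collagen library reached the range of suspension, whose replicate 1 libraries were low. The log2 difference was −3.40 (SE 0.49), with means of 20.1 ± 18.5 CPM in suspension (n = 6) and 1.77 ± 1.08 CPM in collagen (n = 12), and −3.18 without replicate 2 of suspension titled plus CCL19.

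Prg2, which encodes major basic protein, the core of the eosinophil granule, was the most abundant of these RNAs and made up 49.9 to 79.1% of their summed CPM in a library. It lies at chr2:84980461-84983632, close to Prg3 at chr2:84988215-84993886, which encodes a second protein of the same kind (both on the plus strand). Prg2 stood at 105, 1078, and 774 CPM in replicates 1 to 3 of suspension titled plus CCL19, and at 83.7, 140, and 414 CPM in suspension titled without CCL19. In the gel of 1.7 mg/ml its values were 42.9, 50.0, and 33.9 CPM. They were 29.1, 76.4, and 7.40 CPM in the gel of 2.6 mg/ml, 23.1, 87.4, and 23.8 CPM in that of 3.5 mg/ml, and 21.4, 134, and 18.6 CPM in the densest. Replicate 2 was thus the highest of the 3 replicates at each density, and 2 of its gels, at 3.5 and 4.4 mg/ml, reached above the suspension library of lowest Prg2, which belongs to replicate 1. Within each replicate all 4 gels stood below both suspension libraries. The log2 difference was −3.05 (SE 0.55), 8.27-fold lower in collagen, with means of 432 ± 412 CPM (n = 6) and 45.7 ± 36.5 CPM (n = 12). Without replicate 2 of suspension titled plus CCL19 it was −2.77, and the suspension mean was 303 ± 295 CPM (n = 5). Without replicate 2 at 4.4 mg/ml it was −3.43, and the collagen mean was 37.6 ± 24.9 CPM (n = 11).

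Prg3 and Epx followed Prg2 at lower levels. Prg3 stood at 1.84, 21.4, and 13.7 CPM in suspension titled plus CCL19 and at 0.811, 3.46, and 5.45 CPM in suspension titled without CCL19. In collagen it ran from 0 to 3.51 CPM, and 5 of 12 collagen libraries were at or above the lowest suspension library, 4 of them gels of replicate 2. Its log2 difference was −2.58 (SE 0.75), −4.01 without replicate 2, a change of more than 1.5 times, and −2.25 without replicate 2 of suspension titled plus CCL19 alone. Epx, eosinophil peroxidase (chr11:87864000-87875536, minus strand), stood at 29.1, 163, and 71.8 CPM in suspension titled plus CCL19 and at 19.4, 20.1, and 37.7 CPM in suspension titled without CCL19, against 1.20 to 19.6 CPM in collagen. Only the gel of replicate 2 at 4.4 mg/ml touched the suspension range. The log2 difference of Epx was −2.77 (SE 0.54), −2.37 without replicate 2 of suspension titled plus CCL19, and −3.27 without replicate 2 at 4.4 mg/ml.

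Ccr3, the eotaxin receptor by which eosinophils are drawn into tissue, was low but cleanly separated. It lies at chr9:124021972-124031689 on the plus strand. In suspension titled plus CCL19 it had 1.94, 3.58, and 9.42 CPM, and in suspension titled without CCL19 2.90, 8.52, and 4.46 CPM. Its collagen values ran from 0 to 0.823 CPM, from 0 to 17 counts, below every suspension library. The log2 difference was −3.51 (SE 0.49), an 11.4-fold lower level, with means of 5.14 ± 3.09 CPM (n = 6) and 0.450 ± 0.260 CPM (n = 12). Ccr3 and Ear1 were thus the 2 of the 10 genes whose groups did not overlap. Of all genes tested, 1.52% had every collagen library below every suspension library, and since these genes were picked for being lower in collagen, nothing is read from the count.

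Siglecf, a lectin of mouse eosinophils that can trigger their death, lies at chr7:43351341-43359531 on the plus strand. It stood at 0.664, 3.86, and 3.40 CPM in suspension titled plus CCL19, at 1.62, 4.01, and 2.96 CPM in suspension titled without CCL19, and at 0.0686 to 1.28 CPM in collagen. A single gel, replicate 2 at 1.7 mg/ml, reached above a suspension library, that of replicate 1 titled plus CCL19. Its log2 difference was −2.71 (SE 0.42). Il5ra, the specific chain of the IL-5 receptor, was at the edge of detection, with 1, 3, and 3 counts in suspension titled plus CCL19 and 2, 7, and 8 counts in suspension titled without CCL19. In collagen 8 of 12 libraries had 0 counts, which allows up to 3 counts in each, and the highest had 7 counts. No fold is given for Il5ra.

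Alox15, the lipoxygenase that oxygenates arachidonic acid and is abundant in eosinophils and in some macrophages, lies at chr11:70344152-70352031 on the minus strand. It stood at 3.27, 25.0, and 27.9 CPM in suspension titled plus CCL19 and at 2.98, 10.1, and 20.0 CPM in suspension titled without CCL19. Collagen values ran from 0.0902 to 3.18 CPM, the highest 2 in gels of replicate 2, and within each replicate all gels stood below both suspension libraries. The log2 difference of −3.83 (SE 0.60) was the widest after Ear1.

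**Figure D2:**
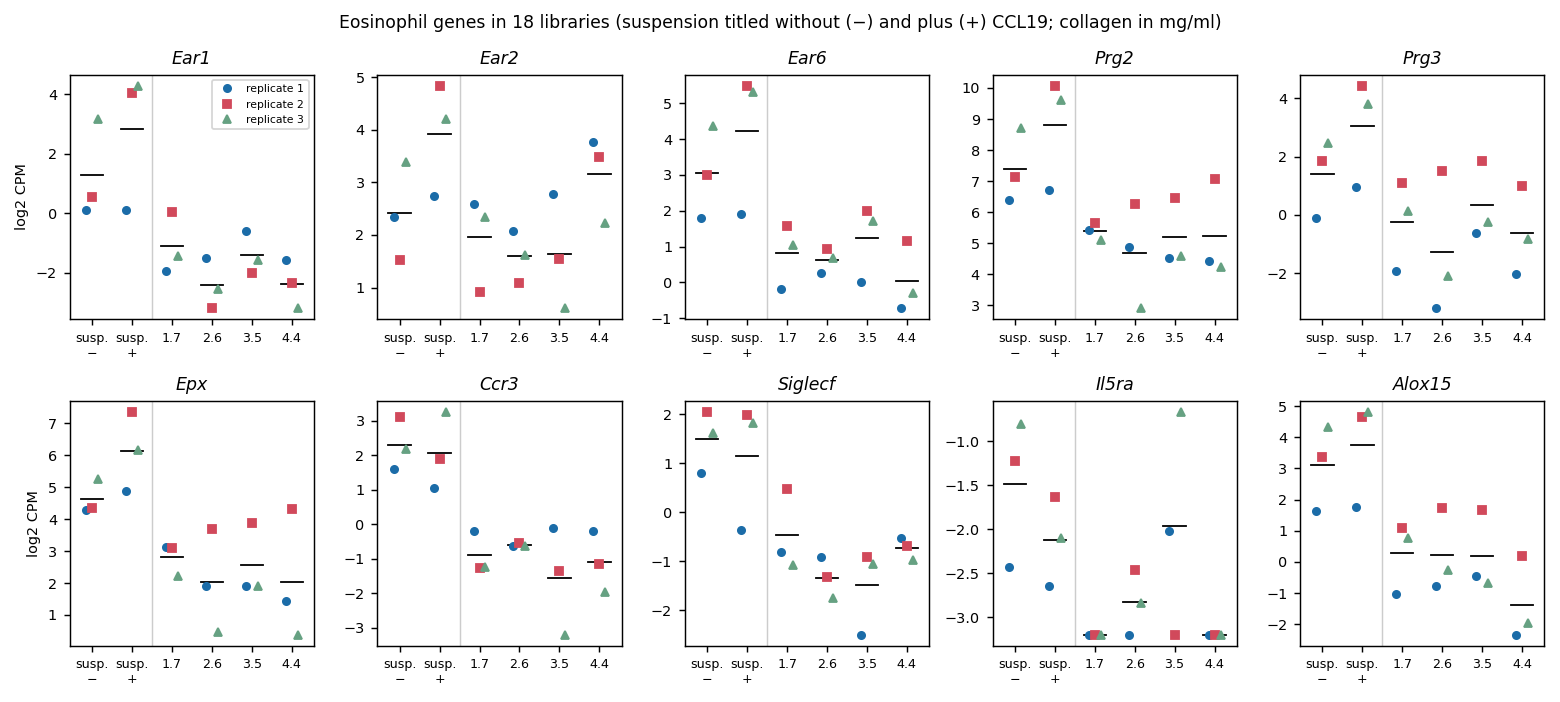
Log2 CPM (y axis, prior count of 2) of the 10 genes in the 2 suspension groups and at the 4 collagen densities in mg/ml (x axis), with 1 point per library shaped by replicate and a bar at the group mean. Only Ear1 and Ccr3 have every collagen point below every suspension point, and replicate 2 (squares) lies highest among the gels of Prg2, Prg3, and, except at 1.7 mg/ml, Epx.

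Per kilobase of exon, the level of Prg2 in suspension was 516 ± 491 CPM per kb (SD, n = 6), and the next were Ear6 at 21.2 ± 19.6, Epx at 20.8 ± 20.3, Ear2 at 16.6 ± 13.6, and Ear1 at 11 ± 11 CPM per kb. Prg3 followed at 8.19 ± 8.53, Alox15 at 6.07 ± 4.46, Ccr3 at 1.57 ± 0.95, Siglecf at 0.99 ± 0.48, and Il5ra at 0.058 ± 0.044 CPM per kb. Neighbours in this order from Ear6 to Alox15, and Ccr3 with Siglecf, differed by less than their spread. In collagen (n = 12) Prg2 again led at 54.5 ± 43.6 CPM per kb. Ear2 came second at 7.17 ± 5.23 CPM per kb, before Epx at 2.58 ± 2.15 and Ear6 at 1.88 ± 1.15 CPM per kb, and Ear1 was seventh at 0.33 ± 0.36 CPM per kb. Prg2 was thus first and the receptors last in both, while Ear2 stood 2 places higher in collagen and Ear1 and Ear6 2 places lower. Without replicate 2 of suspension titled plus CCL19, Prg2 stood at 362 ± 352 CPM per kb in suspension (n = 5), and without replicate 2 at 4.4 mg/ml at 44.9 ± 29.7 CPM per kb in collagen (n = 11), and the order of the 10 genes stayed as given. The shared stretches of Ear1 and Ear2 limit this ranking.

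Collagen against suspension sets cultures in a matrix, all with CCL19, against 2 suspension groups of which 1 is titled plus CCL19. The parts of matrix and CCL19 in the difference were not tested. Mean Prg2 was 652 ± 498 CPM in suspension titled plus CCL19 (SD, n = 3) and 213 ± 177 CPM in suspension titled without CCL19 (SD, n = 3). In collagen it was 45.7 ± 36.5 CPM (SD, n = 12). All 9 genes that passed the filter were lower in collagen, with a median log2 difference of −3.05 against 0.00 over all genes tested, and with the replicate number as a block the median was −3.16. At an FDR of 0.1, 12.4% of all genes tested were lower and 7.78% were higher in collagen, and because the genes were chosen on this comparison, their count says nothing beyond the choice. The median was −2.77 without replicate 2 of suspension titled plus CCL19 and −3.43 without replicate 2 at 4.4 mg/ml. Neutrophil markers summed to 789 to 10297 CPM in suspension and 1196 to 5495 CPM in collagen, and markers of basophils and mast cells to 72.3 to 259 CPM and 37.6 to 256 CPM. In the basophil and mast cell list, Mcpt4 had no entry in the deposited counts, and Tpsab1 and Cma1 had at most 2 and 4 counts in a library. The part of neutrophils, basophils, mast cells, or DCs in the values was not tested.

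The size of the difference varied between replicates. Over the 9 genes, the median difference of mean log2 CPM between the 4 gels and the 2 suspension libraries of a replicate was −1.73 in replicate 1, −2.63 in replicate 2, and −4.46 in replicate 3. For Prg2 the values were −1.73, −2.25, and −4.94, and for Alox15 −2.83, −2.84, and −5.10. For Prg2, the suspension libraries of replicate 3 stood at 774 and 414 CPM and its gels at 7.40 to 33.9 CPM. The direction was the same in 3 of 3 replicates for 9 of the 10 genes, and Ear2 was the exception. Because the genes were chosen for being lower in collagen, nothing is read from this count. Il5ra, 1 of the 9, had too few counts for its direction to be measured.

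**Figure D3:**
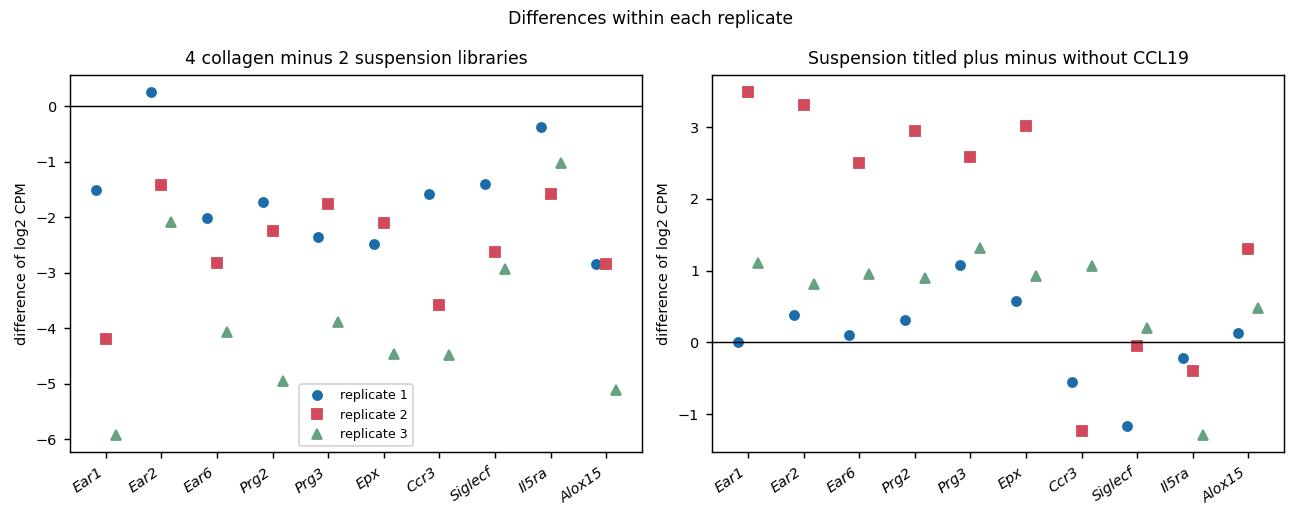
Differences of mean log2 CPM (y axis, prior count of 2) for the 10 genes (x axis) within each replicate: left, the 4 gels minus the 2 suspension libraries, right, suspension titled plus minus suspension titled without CCL19. On the left every point but Ear2 of replicate 1 (0.26) is below 0, and on the right the granule genes of replicate 2 lie highest, with 12.1-fold for Ear1 and 7.70-fold for Prg2.

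Each density against suspension gave the same direction. The 4 comparisons share the suspension libraries and are not independent. The median log2 difference of the 9 genes was −3.14 in the loosest gel, −3.21 in the next, −3.06 in the third, and −3.01 in the densest. Prg2 gave −3.14 (SE 0.95), −3.31 (SE 0.96), −3.06 (SE 0.94), and −2.69 (SE 0.92) from the loosest to the densest gel, so the difference was already present at the lowest density. For Alox15 the values were −3.42 (SE 1.01), −3.32 (SE 1.01), −3.34 (SE 1.01), and −5.23 (SE 1.16).

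**Figure D4:**
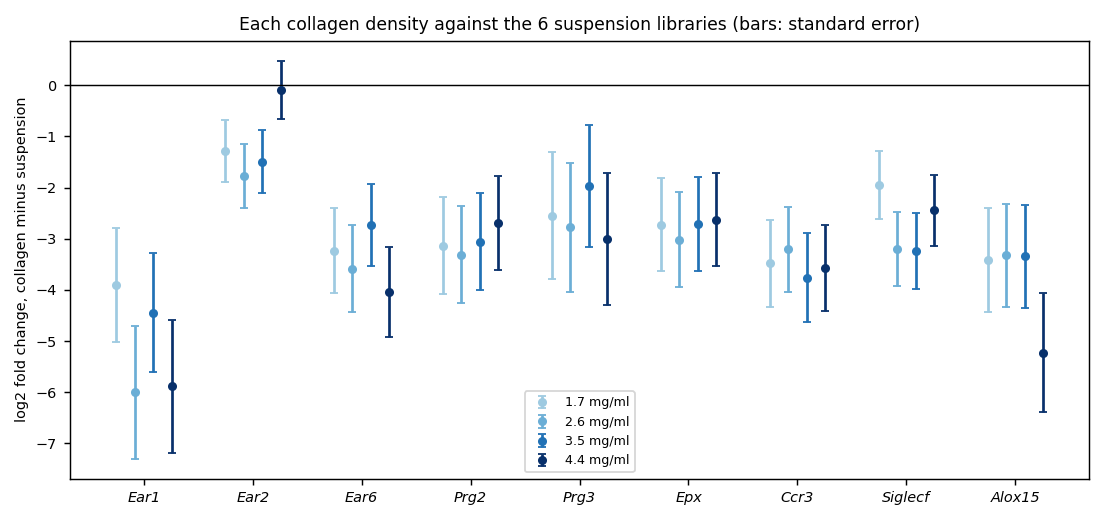
Log2 fold change (y axis) of each density against the 6 suspension libraries for the 9 genes that passed the filter (x axis). Points are edgeR estimates, bars are standard errors, and shades run from 1.7 to 4.4 mg/ml; Ear2 at 4.4 mg/ml (−0.09) is the one point near 0.

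Within collagen, the densities allow a test that the choice of genes did not use. Ear1 and Siglecf passed the filter on low counts only through the suspension libraries, so the trend was read over the other 7 genes, which also passed in the gels alone. A linear trend over the 4 densities was called for 0 of these 7 at an FDR of 0.1 with edgeR, 0 in the gels alone, and 0 with DESeq2, and 0 had an unadjusted p under 0.05 in edgeR. Of all genes tested, 0.00722% (1 gene) had a trend at that FDR with edgeR, and 122 genes had one with DESeq2. An unadjusted p under 0.05 in edgeR was found for 997 of all genes. With the replicate block 0 of the 7 genes were called, and the share of all genes was 1.45%. For the gels alone that share is not given here. Ear2 had the largest slope upward, 0.43 log2 units per mg/ml (SE 0.24, 95% interval −0.07 to 0.93, edgeR's adjusted p = 0.779). Alox15 had the largest slope downward, −0.61 (SE 0.39, 95% interval −1.43 to 0.22, adjusted p = 0.858 with edgeR), and with the block −0.62 (SE 0.24, adjusted p = 0.252). The other 5 genes lay between −0.17 and 0.18 per mg/ml, with standard errors of 0.30 to 0.47.

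In the libraries of the densest and the loosest gel, 6 genes passed the filter, and Ear1, Ccr3, and Siglecf did not. Of these 6, 0 were called between the 2 gels with edgeR at an FDR of 0.1, where 0.00722% of all genes tested were. With DESeq2 0 of the 6 were called, beside 147 of all genes. An unadjusted p under 0.05 in edgeR was found for 0 of the 6 and for 1061 of all genes. With the replicate block 0 of the 6 were called, where 1.73% of all genes were. Log2 differences, 4.4 minus 1.7 mg/ml, were 1.20 for Ear2 (95% interval −0.21 to 2.61) and −1.81 for Alox15 (95% interval −4.19 to 0.57). Prg2 gave 0.45 (95% interval −1.51 to 2.41). These intervals are from the fit without the replicate block and include differences of several-fold. With the block, edgeR gave −1.88 for Alox15 (SE 0.70, adjusted p = 0.215), 1.24 for Ear2 (SE 0.63, adjusted p = 0.385), and −0.10 for Prg2 (SE 0.71). A dependence on density was not detected in either fit at this depth and number of replicates. The values do not show that densities act alike. In the fit without the block, leaving out replicate 2 at 4.4 mg/ml turned Prg2 from 0.45 to −1.08 and Epx from 0.10 to −1.91, and neither was called.

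The suspension groups are the other comparison free of the choice of genes. In all 3 replicates, the 6 granule genes and Alox15 were higher in the library titled plus CCL19 than in its partner. The share of all genes with this order is not given here, so nothing is read from the count. The size ranged widely, and in replicate 1 the ratio was only 1.08 for Ear6 and 1.10 for Alox15. For Prg2 the ratio was 1.25, 7.70, and 1.87 in replicates 1 to 3, for Epx 1.50, 8.13, and 1.90, and for Ear1 1.01, 12.1, and 2.17. The receptors showed no such order: the ratio for Ccr3 was 0.67, 0.42, and 2.11, and for Siglecf 0.41, 0.96, and 1.15. Without the replicate block, 0 of the 9 genes were called with edgeR and with DESeq2, as were 0 of all genes tested. In that edgeR fit, 855 of all genes and Ear2 alone of the 9 had an unadjusted p under 0.05. With the block, edgeR again called 0 of the 9 and 0 of all genes, and 1960 of all genes had an unadjusted p under 0.05. In the edgeR fit that leaves out the block, log2 differences (titled plus minus titled without CCL19) were 1.62 for Prg2 (95% interval −0.38 to 3.61) and 1.55 for Ear2 (0.14 to 2.97, adjusted p = 0.761). They were −0.08 for Ccr3 (−1.73 to 1.56) and −0.12 for Siglecf (−1.56 to 1.33). Without replicate 2 of suspension titled plus CCL19 the values were 1.05 for Prg2, 1.04 for Ear2, 0.11 for Ccr3, and −0.48 for Siglecf. The intervals of granule genes and receptors overlapped, and whether they differ was not tested. With the block and all libraries, edgeR gave 1.24 (SE 0.71) for Prg2, 1.67 (SE 0.64, adjusted p = 0.323) for Ear2, and 1.24 (SE 0.48, adjusted p = 0.325) for Ear6. Prg3 was at 1.56 (SE 0.63, adjusted p = 0.328), Ccr3 at −0.03 (SE 0.76), and Siglecf at −0.18 (SE 0.58).

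Summed granule gene CPM over summed receptor CPM shows the same unevenness. The ratio was 55.2, 177, and 72.4 in replicates 1 to 3 of suspension titled plus CCL19 and 24.6, 13.7, and 63.1 in suspension titled without CCL19. It was 17.8 to 198 in collagen, with a median of 44.0, and 13.7 to 177 in suspension, with a median of 59.1, or up to 72.4 without replicate 2 of suspension titled plus CCL19. Granule and receptor genes therefore stood in ratios of the same range in both. In replicate 2 of suspension titled plus CCL19, the library with the highest granule gene sum (1352 CPM), Elane, the neutrophil elastase made by immature granulocytes, also reached 113 CPM, and its part in the granule values was not tested.

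Replicates differed as well. With the replicate number as the tested term beside the group, edgeR called 5 of the 9 genes at an FDR of 0.1, while 48.3% of all genes tested were called, so the share is near that of genes in general. Prg3 varied most, 8.60-fold between the mean log2 CPM of replicates 2 and 1 (adjusted p = 2.43e-04), followed by Alox15 (4.96-fold, adjusted p = 7.60e-04), Ear6 (3.61-fold, adjusted p = 0.00145), Epx (3.28-fold, adjusted p = 0.0072), and Prg2 (3.27-fold, adjusted p = 0.0303). All 5 were highest in replicate 2. Ear1, Ear2, Ccr3, and Siglecf were not called (adjusted p = 0.548, 0.642, 0.886, and 0.183). Ear1 and Siglecf passed the filter only through the suspension libraries and had few counts in the gels, so little is read from their absence. All 5 called genes also passed in the gels alone. The count fell to 1 without replicate 1 and to 3 without replicate 2. In the gels alone it was 6 of the 7 genes that passed there, with Ear2 called as well (edgeR's adjusted p = 0.0986). The shares of all genes called in these reduced fits are not given here, so nothing is read from those counts.

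Over the 18 libraries, which share groups and replicates, the 9 genes had a median Pearson r of 0.78 over 36 pairs (log2 CPM, given as a description). All were chosen for lower values in collagen, so an r over both kinds of library in part restates the choice. Ear2 had a median r of 0.47 with the others. Without replicate 2 of suspension titled plus CCL19 the medians were 0.75 and 0.30. After the means of group and replicate were removed, the median was 0.59 over all pairs and 0.70 among Ear1, Ear6, Prg2, Prg3, and Epx, but 0.34 between these 5 and the receptors Ccr3 and Siglecf. The receptors and Ear1 had few counts in collagen, and the part of counting error in these values was not tested.

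Among all other genes tested, the 10 whose log2 CPM correlated best with the mean profile of the 9 (r over 18 libraries) were Slc24a3, Ift140, Pold1, Tyk2, Spns3, Iqce, Med24, Arhgap4, Scap, and Krt80, with r from 0.97 to 0.91. Slc24a3, a sodium, calcium, and potassium exchanger, followed it most closely (r = 0.97). It had 4.0 ± 2.6 CPM in suspension (n = 6) and 0.559 ± 0.250 CPM in collagen (n = 12), and after the means of group and replicate were removed its r was still 0.97, against 0.58 to 0.81 for the other 9. Most of the 10 were far more abundant than the receptors, such as Tyk2, a kinase of cytokine receptors, at 394 ± 117 CPM in suspension and 196 ± 35.1 CPM in collagen. Their log2 differences, collagen minus suspension, ran from −0.57 for Scap to −2.89 for Krt80. The profile is that of genes chosen for lower values in collagen, so this ranking in part restates the choice. Whether these genes share cells or regulation with the eosinophil genes was not tested.

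Other genes of the same lineage and pathway were read from lists of related genes. Of 12 transcription factors of the eosinophil lineage, 1 fell in collagen and 0 rose (edgeR, FDR 0.1), where 12.4% of all genes tested fell and 7.78% rose, so single calls in lists of this size are close to the share of genes in general. It was Gata1, the factor eosinophil development depends on, at 0.657 to 6.58 CPM in suspension and 0.0770 to 2.04 CPM in collagen, a log2 difference of −2.60 (SE 0.61, adjusted p = 0.0108). The median of the 12 was 0.06, so the list as a whole did not share the fall. With the replicate block 2 were lower and 2 higher, and of all genes 19.3% were lower and 15.6% higher with it.

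Among 8 cytokine receptors of eosinophils, 1 fell, Csf2rb2, the mouse IL-3 receptor beta chain (log2 difference −0.78, SE 0.20, adjusted p = 0.0181 with edgeR), and 0 rose. With the block 3 were lower and 1 was higher. Csf2rb, the beta chain shared by the receptors for IL-3, IL-5, and GM-CSF, gave −0.60 (SE 0.26, adjusted p = 0.138), and 0.0227 with the block; it was named after its values were seen, and as the 2 are close paralogs, the split of their counts is uncertain. Among 10 other surface receptors, 1 fell, Pira2 (−0.76, SE 0.22, adjusted p = 0.0315), a paired immunoglobulin-like receptor with close paralogs, so its count is uncertain, and 0 rose. With the block 2 were lower and 3 higher. Of the 4 ligands of eosinophil receptors that passed the filter, 0 changed, and Il5 itself had at most 2 counts in a library.

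Of 7 other leukotriene and lipoxygenase enzymes, 2 fell and 0 rose, with the block as without it. Alox5, which begins leukotriene synthesis, went from 103 ± 57.6 CPM in suspension (n = 6) to 51.6 ± 17.4 CPM in collagen (n = 12), a log2 difference of −0.99 (SE 0.34, edgeR's adjusted p = 0.0632). Alox8 was near the floor (0.763 ± 0.616 and 0.221 ± 0.256 CPM, log2 difference −1.92, SE 0.75, adjusted p = 0.0999). Alox5 is also expressed by neutrophils and macrophages. Of 10 other Ear and eosinophil ribonuclease genes, 3 had an entry under their name in the deposited counts. Only Rnase2a passed the filter, and it was not called (log2 difference 1.06, SE 1.26, adjusted p = 0.633 with edgeR).

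Markers of other cells in the culture were read in the same fit. In the neutrophil list 3 of 13 fell and 0 rose: Ly6g (−1.27, SE 0.35, adjusted p = 0.0245), Cxcr2 (−1.69, SE 0.57, adjusted p = 0.0596), and Retnlg (−1.74, SE 0.41, adjusted p = 0.0105), and 3 were lower with the block. Of 8 basophil and mast cell markers, 1 fell, Kit (−1.11, SE 0.21, adjusted p = 0.00308), the stem cell factor receptor that progenitors also carry, and 4 with the block. Of 12 DC markers, 1 fell, Flt3 (−1.12, SE 0.35, adjusted p = 0.0446), and 0 rose, with 1 lower and 1 higher with the block. None of 12 macrophage and none of 5 T, B, and NK cell markers were called by edgeR without the block, with 8 macrophage markers higher and 1 lymphoid marker lower with it, beside 15.6% of all genes higher and 19.3% lower. Medians of the lists were −0.42 for neutrophil, −0.62 for basophil and mast cell, 0.14 for DC, 0.53 for macrophage, and −0.59 for lymphoid markers, beside −3.05 for the eosinophil genes and 0.00 for all genes. The eosinophil genes were chosen for lower values in collagen, so nothing is read from their median beside those of the lists. Siglecf and Alox15 are also known from macrophages, and the cells that carried them here were not tested.

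**Figure D5:**
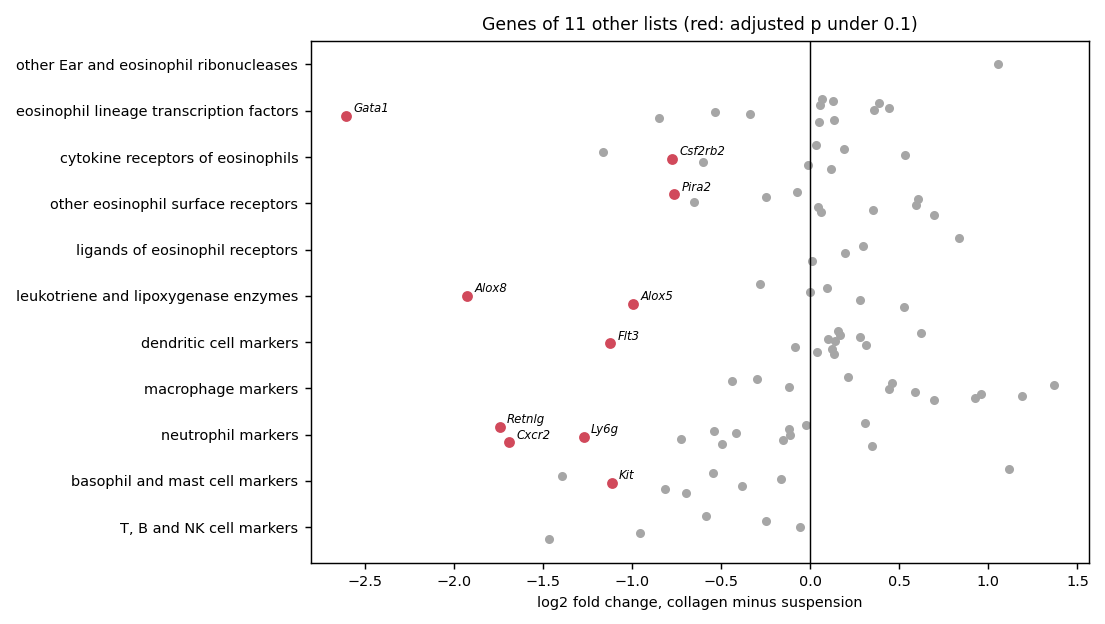
Log2 fold changes (x axis, collagen minus suspension, edgeR) of the tested genes in 11 other lists (y axis), 1 point per gene. Red points passed an FDR of 0.1, all of them lower in collagen, from Gata1 at −2.60 to Pira2 at −0.76.

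Upstream sequences of the eosinophil genes were searched for short words bound by GATA factors on either strand, namely AGATAA and its variants AGATAG and TGATAA, besides which TGATAG was counted. RefSeq promoters (GRCm38.p6) were found for 8 of the 10 genes, not for Prg2 and Alox15. In the 250 bases before the start, 3 of these 8 held a word (Prg3, Ccr3, and Il5ra), against 26.5% of 32851 promoters. Ccr3 is shown because it held 2 words, as 6.4% of promoters hold 2 or more, at chr9:124021721-124021970 on the plus strand, with the words in capitals:
Ccr3: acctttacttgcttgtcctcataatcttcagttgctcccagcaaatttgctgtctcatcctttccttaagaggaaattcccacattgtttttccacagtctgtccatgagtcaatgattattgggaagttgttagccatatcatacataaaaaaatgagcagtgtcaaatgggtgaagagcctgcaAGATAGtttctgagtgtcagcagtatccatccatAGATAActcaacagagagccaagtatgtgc
The last bases of these words lie 59 and 25 bases before the start. The PU.1 core GAGGAA was found on either strand in 2 of the 8 (Ccr3 and Siglecf), against 23.3% of promoters, and in Ccr3 it did not overlap the GATA words. The promoters of Ear1, Ear2, Ear6, Epx, and Siglecf held no GATA word, and a match or its absence describes letters in this window only.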

How the data were processed

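RNA was sequenced from 18 libraries (TruSeq Stranded mRNA, 50-base single-end reads). The authors aligned reads to GRCm38 with STAR 2.7.0f (submitters' processing notes) and deposited raw counts, whole numbers for each Ensembl gene. The study's methods name RSEM, but only for TPM, and whether it made these counts, and what was done with reads of several matches, is not given in the sources used here. Of 29875 genes, 29850 had a symbol.

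From these counts, R 4.3.3 with edgeR 4.0.16 gave filterByExpr, TMM scaling, and quasi-likelihood F-tests over all 18 libraries without a replicate term (FDR 0.1, Benjamini-Hochberg over 13844 genes). Biological coefficients of variation were 49.0% without and 33.1% with the replicate block. Standard errors were derived from F, and a prior count of 2 was used for log2 CPM. Sequences were compared on GENCODE vM21 and RefSeq. The fits were tested on simulated data. DESeq2 1.42.0, the tool named in the study's methods, was an alternative.

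Replicate numbers pair the libraries because they share a date and a lane. Deviations of same-numbered libraries correlated with a mean r of 0.43 over 45 pairs (lowest −0.15), against −0.26 for different numbers. Total counts were 13062944 to 28059839 per library, and floors of 3 counts cover counting error only. Groups are called biological replicates in their titles, and whether they came from separate mice is not stated.

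The genes and the other 11 lists were chosen with earlier results of these data known. Genes named from the lists were up to 3 past the threshold per list with the largest collagen difference, and the 10 genes closest to the mean profile.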

Additional observations from a re-analysis of the deposited data

Results flagged for a closer look

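Among the 6 suspension libraries, each of the 10 genes was examined for a library far from the others (gap in CPM to the nearest library over the whole range, Dixon's test). Epx was marked: its value in replicate 2 of suspension titled plus CCL19, 163 CPM, lay 0.636 of the range above the next, past the critical value for 6 libraries. Chance marks about 1 in 20 such groups, and the margin is small. The other 9 genes stayed under the critical value.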

How the results depend on the processing

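Alternatives were the replicate block, DESeq2, DESeq2 size factors, total counts in place of TMM, no filter, an FDR of 0.05, fits on the compared or the collagen libraries only, and omission of each replicate or of replicate 2 at 4.4 mg/ml. DESeq2 with the block, and leaving out replicate 2 of suspension titled plus CCL19, were chosen after seeing the data. For collagen against suspension, all 9 genes stayed lower under 12 alternatives each, with the median between −3.74 and −2.45 when libraries were left out and Ear2 nearest to 0 (−1.81 to −0.68). The counts of 0 for trend, densest against loosest gel, and suspension groups held under every alternative run, the replicate block included. In the compared libraries alone these were counts over 7 genes for the trend and 6 for densest against loosest gel, and values of Ear1, Siglecf, and, for the latter, Ccr3 passed the filter only through other libraries. DESeq2 with the block called 811 of all genes for the trend, 918 for densest against loosest gel, and 194 for the suspension groups. Between the suspension groups it gave no adjusted p for Ear1, Prg3, Ccr3, and Siglecf, so its count of 0 does not cover them. Replicate differences called 1 to 5 genes when single libraries or replicates were left out and 6 of 7 in the collagen libraries only, with Ear2 added (edgeR's adjusted p = 0.0986). The shares of all genes called in those fits are not given here.

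Directions turned only among uncalled values. With the replicate block, slopes were −0.013 for Prg2 and −0.16 for Epx, and 4.4 minus 1.7 mg/ml gave −0.10 and −0.62. In DESeq2 with the block, slopes were −0.0018 for Prg2, 0.021 for Prg3, and −0.16 for Epx, 4.4 minus 1.7 mg/ml gave −0.066 for Prg2 and −0.63 for Epx, and the suspension groups gave 0.018 for Ccr3. Total counts gave −0.085 for Epx (4.4 minus 1.7 mg/ml). With the block and without replicate 2 at 4.4 mg/ml, slopes were −0.22 for Prg2 and −0.46 for Epx, and 4.4 minus 1.7 mg/ml gave −0.73 for Prg2, −1.50 for Epx, 0.0074 for Ccr3, and 0.017 for Siglecf. With libraries left out, slopes ranged from −0.33 to 0.36 for Prg2, −0.60 to 0.29 for Epx, −0.53 to 0.0019 for Prg3, −0.28 to 0.037 for Siglecf, and −0.33 to 0.031 for Ccr3. The ranges for 4.4 minus 1.7 mg/ml were −1.08 to 0.93 for Prg2, −1.91 to 0.74 for Epx, −0.81 to 0.26 for Siglecf, and −0.36 to 0.10 for Ccr3, and for the suspension groups −1.05 to 0.67 for Ccr3 and −0.48 to 0.054 for Siglecf. The cause was not tested. Genes near 3 counts, Il5ra and Ear1 in collagen, are limited by depth.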
